A study of Homo sapiens with 29 samples.

Results

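The BCL2 family was followed through 10 genes chosen by name, 10 of the 35579 genes to which the transcripts of the data could be summed: BMF, BCL2L11, BBC3, PMAIP1, BIK, BAX, BAK1, BCL2L1, MCL1 and BCL2. RNA came from 10 lines of PC9, a human EGFR-mutant lung adenocarcinoma cell line, each sequenced untreated and after 24 h with the EGFR inhibitor erlotinib (E), and 9 of them also after 24 h with erlotinib and AF154, an antibody that activates the receptor AXL (EA), with 1 library per line and treatment and 29 libraries in all. The lines were parental cells (PAR), an AXL knockout made from them with CRISPR/Cas9 (KO), and knockout cells that received, by lentivirus, a wild-type receptor (WT), a kinase-dead receptor (KD) or a receptor with a tyrosine-to-phenylalanine change (Y634F, Y643F, Y698F, Y726F, Y750F or Y821F). The transduced lines were sorted populations in which, by the study's own estimate, only a minority of cells expressed AXL. The KO line under EA was not analysed here. Values are in TPM, a unit of transcript abundance that sums to the same total in every library and is scaled for transcript length, so levels can be compared between genes.

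BCL2 family proteins decide whether the outer mitochondrial membrane is opened, the step that releases cytochrome c and commits a cell to apoptosis. BAX and BAK open it, the pro-survival proteins BCL-2, BCL-XL and MCL-1 hold them in check, and BH3-only proteins such as BIM, BMF, PUMA and NOXA bind the pro-survival proteins and in part act on BAX and BAK directly. In EGFR-mutant lung cancer cells, BIM is known for its role in cell death after EGFR inhibition.

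The epithelial genes EPCAM, CDH1, KRT7, KRT8, KRT18 and KRT19 were expressed in every library, with EPCAM between 286 and 439 TPM. CDH1 was the lowest of them, between 60.8 and 173 TPM. Of 8 markers of leukocytes, endothelium and fibroblasts, CD3E was at 0 throughout and PTPRC, VWF, COL1A2 and DCN reached at most 1.99 TPM, whereas CD68 (27.8 to 68.1 TPM), COL1A1 (15.3 to 70.9 TPM) and PECAM1 (1.03 to 9.60 TPM) were present. With E, COL1A1 changed by 1.03 and CD68 by -0.69 on the log2(TPM + 1) scale (limma adjusted p of 4.26e-09 and 4.02e-07), and PECAM1 went from 4.99 to 9.60 TPM untreated to 1.03 to 3.84 TPM. The sum of the 8 markers was 65.1 to 98.2 TPM untreated, 81.4 to 96.8 TPM with E and 76.6 to 107 TPM with EA, and its part in the results was not tested. AXL lay between 79.3 and 92.4 TPM in the 2 KO libraries and between 217 and 852 TPM in the other 27. TPM keep no read depth, so the counting error behind a value is unknown and precision rests on how far the lines spread. The lines served as replicates of a treatment, although they carry different receptors.

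Erlotinib raised the BH3-only genes BMF, BCL2L11 and BBC3 in all 10 lines and lowered the pro-survival genes BCL2L1 and BCL2 in all 10, while the pore-forming effectors BAX and BAK1 and the pro-survival gene MCL1 fell by small amounts. By group means, BMF rose 18.5-fold, BCL2L11 rose 2.71-fold and BBC3 rose 2.74-fold. Of the 9 members that averaged 10 TPM or more across all 29 libraries, 8 passed an adjusted p of 0.05 in limma, with 4 higher and 4 lower, and 79.0% of all 9085 genes tested passed as well (36.4% higher and 42.6% lower). The members' median change on the log2(TPM + 1) scale was 0.09, beside -0.04 over all genes. The count of members past the threshold was therefore near the background, and the members stood apart from one another by the size of their changes. BMF and BBC3 had untreated means under 10 TPM and passed the filter through the treated libraries. In bulk RNA, fewer cells that express a gene and less RNA per cell cannot be told apart.

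**Figure D1:**
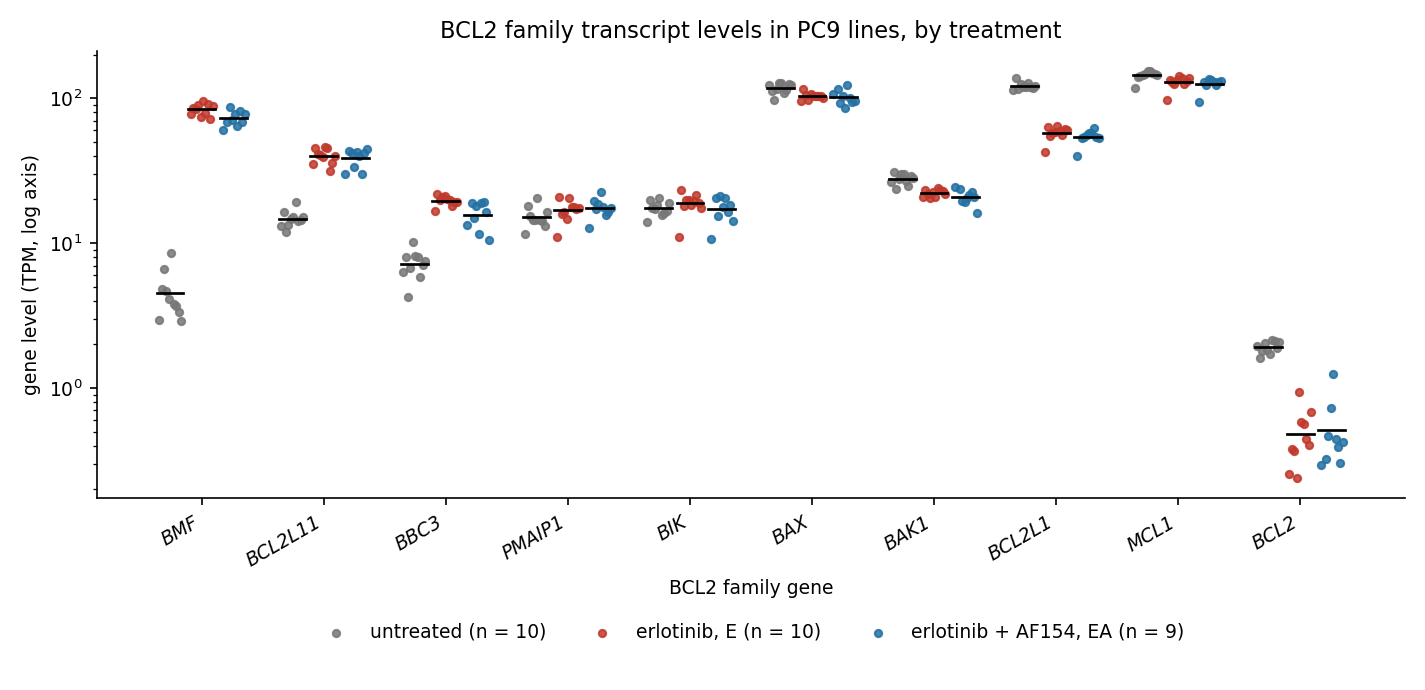
Gene level in TPM (vertical log axis) of the 10 BCL2 family genes, with 1 point per line and treatment and a bar at the mean of 10 untreated, 10 E and 9 EA libraries. The E libraries of BMF sit between 71.6 and 95.8 TPM, all above the untreated ones at 2.88 to 8.48 TPM, and those of BCL2L1 sit between 42.6 and 64.1 TPM, all below the untreated ones.

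BMF (ENSG00000104081, minus strand, chromosome 15 from 40087890 to 40108892 in GENCODE release 29, GRCh38) encodes a BH3-only protein that binds dynein light chains. Its untreated level ran from 2.88 TPM in Y821F over a median of 3.94 TPM to 8.48 TPM in Y643F. With E it ran from 71.6 TPM in Y750F over a median of 85.3 TPM to 95.8 TPM in Y643F. The ranges did not overlap, which was the case for 36.5% of all genes tested. The mean change on the log2(TPM + 1) scale was 3.99 (SE, the standard error of the fit, 0.10, limma adjusted p = 1.34e-13), the largest rise among the 9085 genes of this fit. BMF entered that set only through its treated libraries, so the rank describes the genes kept by the filter. The BMF change ranged from 3.35 in Y643F, which had the highest untreated level, to 4.54 in Y821F, which had the lowest. The KO and KD lines lay inside that range, at 3.90 and 4.01.

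BCL2L11 (ENSG00000153094, plus strand, chromosome 2 from 111119378 to 111168447) encodes BIM, which binds every main pro-survival protein. Untreated it ran from 11.96 TPM in WT over a median of 14.6 TPM to 19.2 TPM in Y698F, and with E from 31.6 TPM in Y726F over a median of 40.3 TPM to 46.4 TPM in Y643F. The groups did not overlap. The mean log2 change was 1.38 (SE 0.06, limma adjusted p = 1.56e-11), from 1.10 in Y726F to 1.70 in WT. In TPM, BCL2L11 exceeded BMF in every untreated library and BMF exceeded BCL2L11 in every library with E or EA.

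The 250 bases before the RefSeq start (GRCh38.p14) are shown for BMF and BCL2L11, which rose in every line, as BBC3 also did. Capitals mark matches, on either strand, to the FOXO core GTAAACA or the GC box GGGCGG. The BMF window shown is chr15:40108880-40109129 on the minus strand, which ends 1 base before the first of its 2 RefSeq starts, and the BCL2L11 window is chr2:111120664-111120913 on the plus strand.
BMF: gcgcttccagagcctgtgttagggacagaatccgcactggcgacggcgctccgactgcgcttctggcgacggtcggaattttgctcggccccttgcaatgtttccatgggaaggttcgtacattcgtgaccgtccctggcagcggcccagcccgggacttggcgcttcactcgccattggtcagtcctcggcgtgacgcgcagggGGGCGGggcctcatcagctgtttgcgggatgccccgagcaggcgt
BCL2L11: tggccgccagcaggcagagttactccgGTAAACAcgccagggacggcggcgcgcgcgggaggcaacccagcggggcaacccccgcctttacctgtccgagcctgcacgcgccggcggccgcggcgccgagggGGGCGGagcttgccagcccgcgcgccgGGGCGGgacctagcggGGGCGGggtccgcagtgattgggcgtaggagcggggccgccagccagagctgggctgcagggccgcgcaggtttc
The BCL2L11 window held 1 FOXO core match, 223 bases before the start, and 3 GC boxes, and the BMF window held 1 GC box, 45 bases before the start, and no FOXO core match. The window of the other BMF start, chr15:40106967-40107216, is not shown and held no match. Among 35116 RefSeq windows of the same length, 2.98% held the FOXO core and 42.6% the GC box. None of these windows held AP-1 (TGANTCA, in 6.57% of windows), E-box (CACGTG, in 6.34%) or TATAAA letters (in 10.7%), and no match overlapped another. The BBC3 window, not shown, held 1 AP-1 and 1 E-box match and no FOXO core or GC box. Among the windows of the members, only that of BCL2L11 held a FOXO core match. The motifs were chosen with the values known, and a match is a description of the letters.

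BBC3 (ENSG00000105327, minus strand, chromosome 19 from 47220822 to 47232766) encodes PUMA, a BH3-only protein best known as a p53 target. Its untreated level ran from 4.27 TPM in WT over a median of 7.24 TPM to 10.1 TPM in Y634F, and its level with E from 16.5 TPM in PAR over a median of 19.8 TPM to 21.8 TPM in KO. Again the groups did not overlap, and E was higher in 10 of 10 lines. The mean log2 change was 1.36 (SE 0.08, limma adjusted p = 9.13e-10), from 1.003 in Y634F to 1.98 in WT.

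PMAIP1 and BIK, the remaining BH3-only genes, moved little from their untreated levels. PMAIP1 (ENSG00000141682, chromosome 18 from 59899948 to 59904306), which encodes NOXA, a partner of MCL-1, ran from 11.5 to 20.4 TPM untreated with a median of 14.5 TPM, and from 11.1 to 20.8 TPM with E with a median of 17.3 TPM. The ranges overlapped almost entirely, and the log2 change of 0.14 (SE 0.06, limma adjusted p = 0.0284) was positive in 8 of 10 lines. That call was lost in the fit without the line as a block (adjusted p = 0.194) and in 5 of 10 fits that left out 1 line, namely KD, KO, Y698F, Y726F or Y750F (up to 0.0739). BIK (ENSG00000100290, chromosome 22 from 43110748 to 43129712), whose protein acts at the endoplasmic reticulum, ran from 14.0 to 20.3 TPM untreated and from 11.1 to 23.3 TPM with E. Its log2 change of 0.09 (95% interval -0.06 to 0.24) did not pass the test, with an adjusted p of 0.247 from limma.

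The effectors changed less than BMF, BCL2L11 and BBC3. BAX (ENSG00000087088, chromosome 19 from 48954815 to 48961798) ran from 97.0 to 128 TPM untreated with a median of 119.9 TPM, and from 95.3 to 117 TPM with E with a median of 104 TPM. The ranges overlapped, BAX was lower in 8 of 10 lines, and the log2 change was -0.18 (SE 0.05, limma adjusted p = 0.00376). BAK1 (ENSG00000030110, chromosome 6 from 33572547 to 33580293) ran from 23.7 to 30.9 TPM untreated and from 20.4 to 23.9 TPM with E. It was lower in 10 of 10 lines by 0.31 on average (SE 0.05, limma adjusted p = 4.91e-05).

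Among the 9 members that passed the filter, BCL2L1 had the largest fall on the log2(TPM + 1) scale. BCL2L1 (ENSG00000171552, minus strand, chromosome 20 from 31664452 to 31723989) encodes BCL-XL in its long form and ran from 114 TPM in PAR over a median of 119.8 TPM to 138 TPM in KO untreated. With E it ran from 42.6 TPM in PAR over a median of 58.9 TPM to 64.1 TPM in Y643F. The groups did not overlap, and the mean log2 change was -1.07 (SE 0.04, limma adjusted p = 1.19e-11). MCL1 (ENSG00000143384, chromosome 1 from 150574551 to 150579738), whose protein turns over fast, was the most abundant member in untreated cells by its mean, from 117 to 154 TPM with a median of 146 TPM. With E it ran from 96.6 to 141 TPM with a median of 132 TPM, lower in 10 of 10 lines by 0.16 on the log2 scale (SE 0.03, limma adjusted p = 0.000146), with overlapping ranges. BCL2 (ENSG00000171791, chromosome 18 from 63123346 to 63320128) was close to absent, at 1.61 to 2.13 TPM untreated and 0.24 to 0.93 TPM with E. Its mean over the 29 libraries was 0.99 TPM, under the filter, so it was read only from the fit with no filter, where its log2 change was -0.98 (SE 0.07, limma adjusted p = 8.00e-07), lower in 10 of 10 lines. By group means BCL2 was 3.95-fold lower and BCL2L1 2.12-fold lower.

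**Figure D2:**
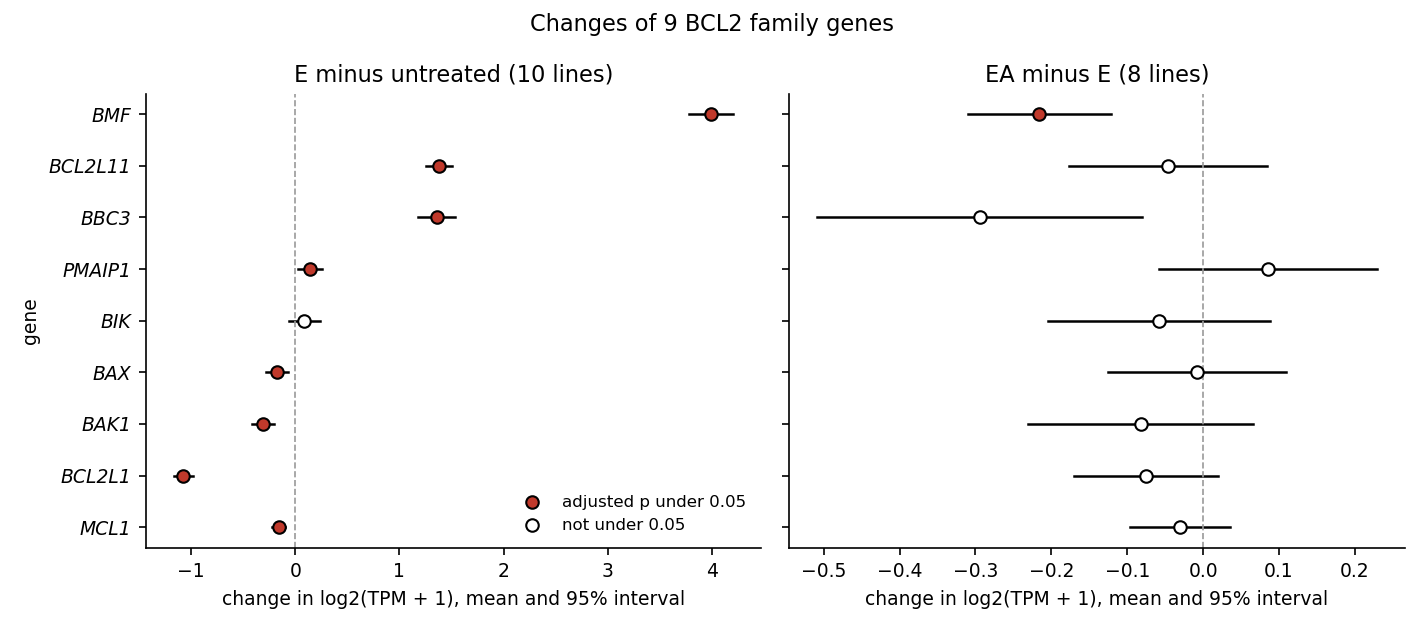
Mean change in log2(TPM + 1) with its 95% interval for the 9 members that passed the filter, for E minus untreated over 10 lines (left) and EA minus E over 8 lines (right, on a narrower axis). Filled points passed an adjusted p of 0.05 in limma, which were 8 members on the left and BMF alone on the right.

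Summed over the 5 BH3-only members, the level rose from 59.2 ± 7.09 TPM untreated to 179 ± 15.02 TPM with E (SD, n = 10 lines). Summed over the 3 pro-survival members, it went from 268 ± 13.7 TPM to 187 ± 18.5 TPM. The ratio of the sums was 0.201 to 0.265 in untreated libraries, with a median of 0.215, and 0.846 to 1.09 with E, with a median of 0.973. With EA it was 0.835 to 0.983, with a median of 0.885, lower than E in 8 of 9 lines, with Y750F the exception. As a difference of mean log2 values, EA was lower in 6 of 9 lines, with WT, Y634F and Y750F the exceptions. Every treated library lay above every untreated one. The ratio is a description of transcript levels that depends on which members are summed, and it was not tested.

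**Figure D3:**
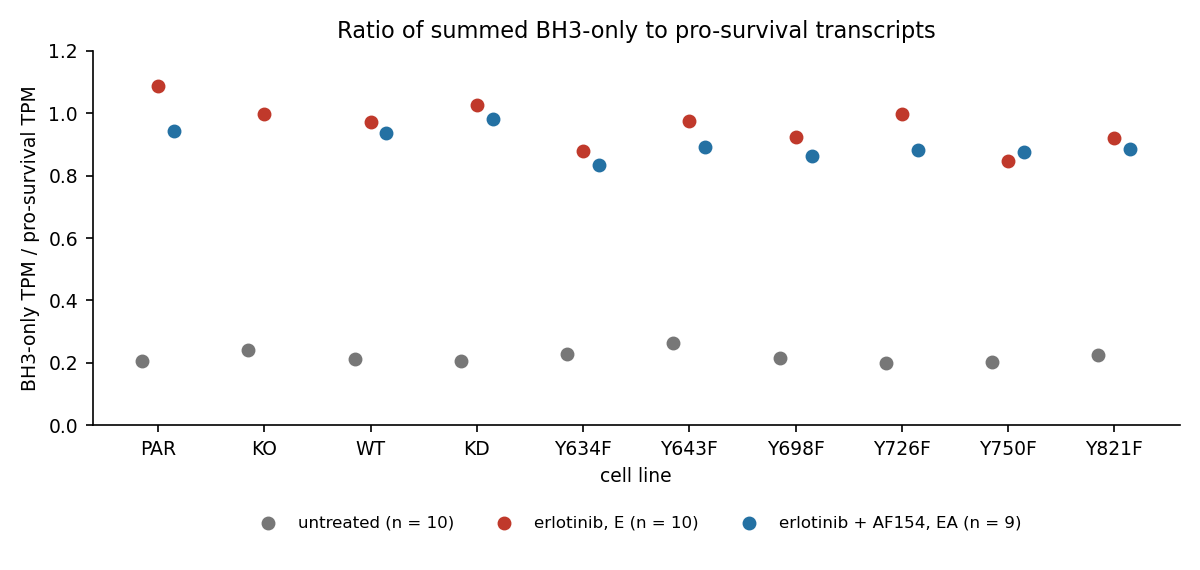
Sum of BMF, BCL2L11, BBC3, PMAIP1 and BIK over the sum of BCL2L1, MCL1 and BCL2 (vertical axis, ratio of TPM) for each line, with 1 point per library. Untreated libraries sit between 0.201 and 0.265, and libraries with E or EA between 0.835 and 1.09.

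The comparison of EA with E asks what AF154 adds under EGFR inhibition, and was made in the 8 lines other than KO and KD. The paper reports AXL activation by erlotinib without AF154 as well, so E is no baseline free of AXL activity. In the transduced lines, bulk values also average over the many cells that did not express AXL. Only BMF among the 9 members tested passed the threshold, with a lower level in EA. Over all genes 2.36% passed and 0.473% passed as lower (1.88% as higher), with 171 genes higher and 43 lower, or 133 and 72 with each library centred on its median. In these 8 lines BMF with E ran from 71.6 TPM in Y750F over a median of 81.8 TPM to 95.8 TPM in Y643F. With EA it ran from 60.2 TPM in PAR over a median of 69.7 TPM to 82.0 TPM in Y726F. The ranges overlapped, as for all but 0.264% of genes, but within each line EA was the lower, in 8 of 8, a pattern that 1.55% of all genes showed. The log2 change was -0.22 (SE 0.04, limma adjusted p = 0.0339), a mean of 71.2 TPM against 82.9 TPM.

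The size of the BMF difference ran from -0.36 in PAR to -0.05 in Y750F. KD, with no replicate, stood at -0.06, inside the range of the 8 lines. The call was lost without the line as a block (adjusted p = 0.268), with a filter at a mean of 1 TPM (0.0580) or none (0.115), and in 6 of 8 fits that left out 1 line, namely PAR, WT, Y634F, Y643F, Y698F or Y821F (0.0559 to 0.0817). Its log2 change stayed between -0.24 and -0.19 in all alternatives. Compared with the rise of BMF with E the difference was small: with EA, BMF was still higher than untreated by 3.79 on the log2 scale (SE 0.13, limma adjusted p = 3.57e-10).

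**Figure D4:**
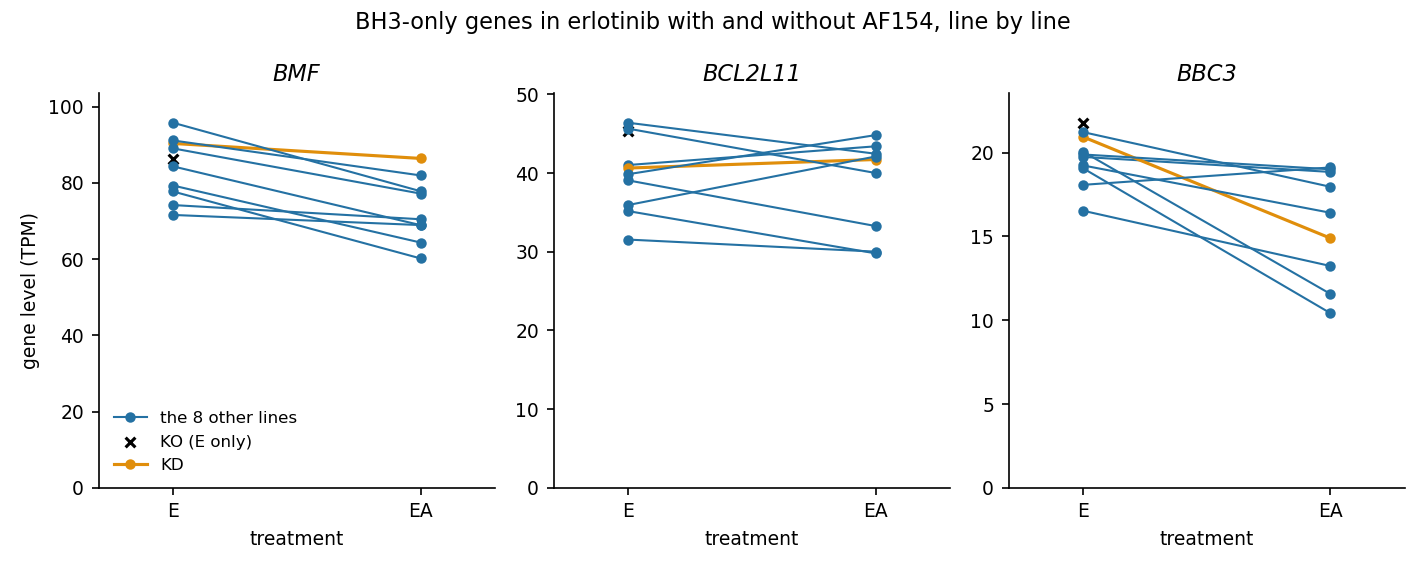
Gene level in TPM (vertical axes from 0) of BMF, BCL2L11 and BBC3 with E and with EA, with a line joining the 2 libraries of each cell line, KD in orange and KO, for which no EA library was analysed, as a cross at E. BMF goes down from E to EA in every line, BBC3 in every line but Y726F, and BCL2L11 goes either way.

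BBC3 had the larger mean difference between EA and E and the larger spread. With E it ran from 16.5 to 21.2 TPM in the 8 lines with a median of 19.5 TPM, and with EA from 10.4 TPM in Y821F to 19.1 TPM in Y726F with a median of 17.2 TPM. In Y643F and Y821F, EA left 11.6 and 10.4 TPM of 20.1 and 19.1 TPM, while in WT, Y698F and Y726F the values lay close to E. The share of mitochondrially encoded transcripts went from 12.9% to 17.4% in Y821F and from 12.3% to 14.4% in Y643F between E and EA, and from 13.0% to 13.5% in WT, 13.4% to 12.9% in Y698F and 13.4% to 13.4% in Y726F. In PAR the share went from 17.4% to 16.4% and BBC3 from 16.5 to 13.2 TPM. In Y634F the share went from 12.3% to 13.3% and BBC3 from 21.2 to 18.0 TPM. In Y750F the share went from 14.2% to 14.3% and BBC3 from 19.2 to 16.4 TPM. The Y821F library with EA, which had the highest such share of the 29, also had the lowest BBC3 and BAK1 (16.1 TPM) with EA. With the mitochondrially encoded transcripts left out and the rest rescaled, the BBC3 change was -0.28, and it was -0.22 without Y821F and -0.23 without Y643F. The part of the mitochondrial share in the BBC3 values was not tested. In the main fit the log2 change of BBC3 was -0.29 (95% interval -0.51 to -0.08), lower in 7 of 8 lines, with an adjusted p of 0.121 from limma. KD stood at -0.47.

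BCL2L11 with EA ran from 29.8 to 44.8 TPM, higher than E in 3 of 8 lines and lower in 5, with a log2 change of -0.05 (95% interval -0.18 to 0.08). BCL2L1 was lower in 7 of 8 lines by a mean of -0.08 (95% interval -0.17 to 0.02), with Y726F the exception. The log2 changes of PMAIP1, BIK, BAX, BAK1 and MCL1 lay between -0.08 and 0.09, with adjusted p-values from limma of 0.485 to 0.950. Against untreated cells of the 8 lines, EA gave 8 of 9 members past the threshold, 4 higher and 4 lower, beside 70.6% of all genes (33.1% higher and 37.6% lower), and the ranges of BMF, BCL2L11, BBC3, BCL2L1 and BCL2 did not overlap, as for 32.1% of all genes. BCL2L11 was 1.31 higher and BBC3 1.04 higher on the log2 scale, and BCL2L1 was lower by a change of -1.14. The EA and E comparisons share libraries and are given side by side. BAX passed with EA at an adjusted p of 0.0465 from limma that was lost in 11 of 17 alternatives, among them leaving out PAR, Y634F, Y643F, Y726F, Y750F or Y821F (0.0708 to 0.127).

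PAR is the only line that never lost its own AXL gene. Over its untreated and E libraries PAR had 4 of 9 members at lower levels than the 9 other lines (30.2% of all genes passed, 18.1% as lower and 12.1% as higher). They were BIK with a log2 difference of -0.55 (SE 0.11, limma adjusted p = 0.00203), PMAIP1 with -0.51 (SE 0.15, limma adjusted p = 0.0226), MCL1 with -0.39 (SE 0.06, limma adjusted p = 0.000400) and BCL2L1 with -0.28 (SE 0.07, limma adjusted p = 0.0100). MCL1 in PAR was 117 TPM untreated and 96.6 TPM with E, where the other lines ran from 140 to 154 TPM and from 125 to 141 TPM. For the response to E, 0 of 9 members differed between PAR and the other lines in limma (5.89% of genes passed). The smallest p of the 9 was that of BCL2L1, which did not pass the adjusted threshold. BCL2L1 fell further in PAR by a difference of -0.37 (95% interval -0.59 to -0.14). Over 14 alternatives this difference ran from -0.39 to -0.18 with limma adjusted p from 0.0499, without WT, to 0.289, with each library centred on its median, where it was -0.18. The median difference between PAR and the other lines over all genes was -0.12, and 0.07 after that centring, which turned the split of genes past the threshold from 60 higher and 475 lower to 292 and 158. The fit has 1 PAR library per treatment and assumes that PAR varies like the other lines. The 9 other lines all descend from the knockout cells, so they are related, and the fit measures only the spread among them. Loss of AXL and any other effect of that derivation cannot be told apart. Mitochondrially encoded transcripts took 17.4% of the PAR library with E, against 12.3% to 14.2% in the other E libraries, and their part in these differences was not tested.

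The transcripts of BAX and BCL2L1 changed their proportions with E. These TPM are the authors' assignment of reads to overlapping transcripts, and the transcripts described beyond the most abundant of each gene were chosen after their values were seen. BAX-202, with 192 codons, is the full-length BAX alpha form, and BAX-201, with 218 codons, reads through the last intron into other codons. The stretch at which their coding sequences part is shown because it is what distinguishes them, with the 30 shared bases in lower case and the first 30 bases of each own end in capitals (GENCODE release 29, plus strand, after 475 shared coding bases). The own bases of BAX-202 lie in the exon from 48961532 to 48961798, while those of BAX-201 lie inside an exon from 48960810 to 48961798.
BAX-202: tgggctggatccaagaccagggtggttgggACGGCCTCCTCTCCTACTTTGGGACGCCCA
BAX-201: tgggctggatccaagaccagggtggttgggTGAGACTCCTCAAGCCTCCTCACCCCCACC
BAX-201 fell from 38.5 to 44.9 TPM untreated (median 42.7 TPM) to 18.4 to 26.4 TPM with E (median 22.2 TPM). BAX-202 was 25.9 to 50.7 TPM untreated (median 40.8 TPM) and 38.5 to 60.0 TPM with E (median 53.9 TPM), higher in 9 of 10 lines.

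As a share of all BAX TPM, BAX-202 went from 33.6% ± 4.19 to 50.9% ± 5.80 (SD, n = 10 lines), higher in 10 of 10 lines. The two-sided exact sign-flip permutation test over the 10 lines gave p = 0.00195, the smallest it can give, and 0.0286 after adjustment over the 8679 genes with at least 2 transcripts, of which 9.67% passed. The ratio of BAX-202 to BAX-201 had a median of 0.964 untreated, 2.44 with E and 2.07 with EA. With EA in the 8 lines the BAX-202 share was 43.3% ± 8.18 against 50.2% ± 6.20 with E (SD), lower in 7 of 8 lines, with an exact p of 0.0156 and an adjusted p of 0.660 over all genes, of which 0.00% passed. On the log2 scale the gene total of BAX changed by less (-0.18) than either BAX-201 (-0.91) or BAX-202 (0.41).

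**Figure D5:**
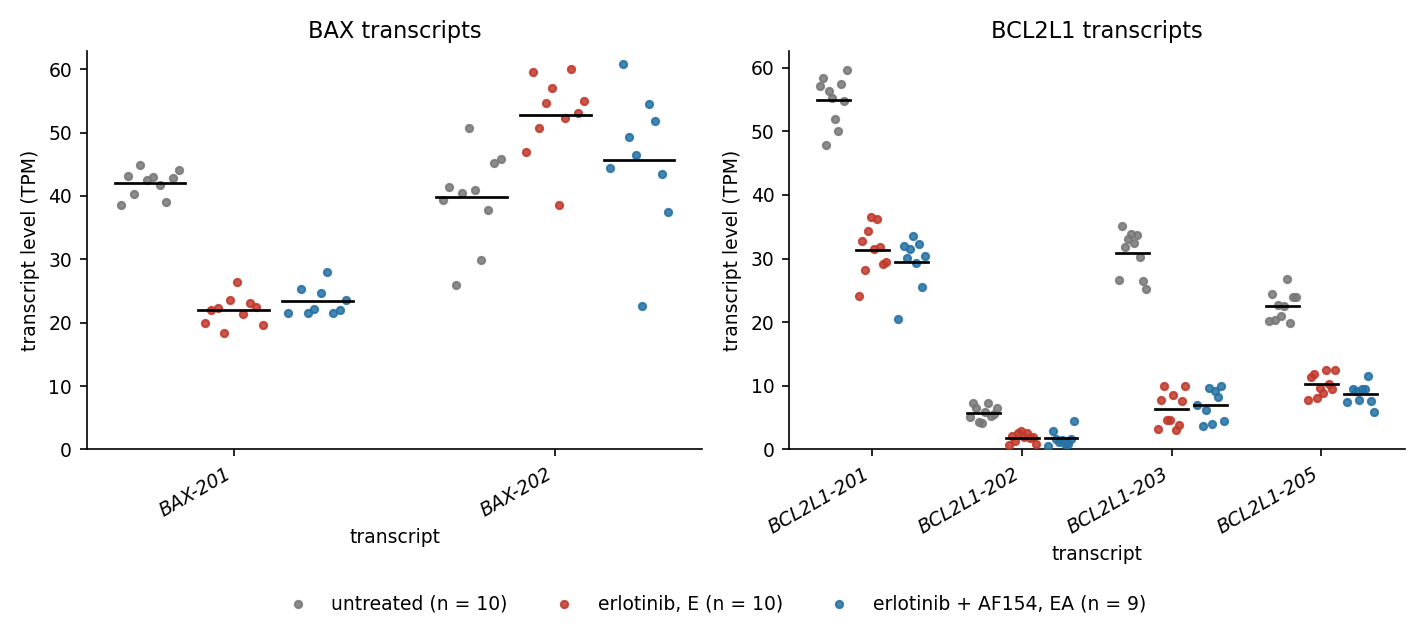
Transcript level in TPM (vertical axes from 0) of 2 BAX and 4 BCL2L1 transcripts, with 1 point per line and treatment and a bar at the group mean. BAX-201 drops from 38.5 to 44.9 TPM untreated to 18.4 to 26.4 TPM with E, and BCL2L1-203 from 25.3 to 35.1 TPM to 2.99 to 9.94 TPM.

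For BCL2L1, E lowered the 4 transcripts that held most of its TPM by unequal amounts. BCL2L1-201, the most abundant, and BCL2L1-203 share a coding sequence of 233 codons, that of BCL-XL, and start at different bases, 31722898 and 31722597, on the minus strand of chromosome 20. BCL2L1-201 fell from 47.9 to 59.7 TPM (median 55.8 TPM) to 24.2 to 36.5 TPM (median 31.6 TPM), while BCL2L1-203 fell from 25.3 to 35.1 TPM (median 32.2 TPM) to 2.99 to 9.94 TPM (median 6.15 TPM). BCL2L1-205, which is annotated with 188 codons, went from a median of 22.6 TPM to 9.97 TPM. The share of BCL2L1-201 rose from 45.1% ± 3.45 to 54.6% ± 5.47 (SD, n = 10 lines) in 9 of 10 lines, with an exact sign-flip p of 0.00391 and an adjusted p of 0.0404 over the 8679 genes. That of BCL2L1-203 went from 25.3% to 10.8% on average.

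BCL2L1-202, with 170 codons, is the short form BCL-XS, which promotes death where BCL-XL blocks it. It parts from BCL2L1-201 after 376 shared coding bases, at an earlier splice site of the same exon, and the stretches at this splice are given with the shared bases in lower case and the own bases in capitals (minus strand).
BCL2L1-201: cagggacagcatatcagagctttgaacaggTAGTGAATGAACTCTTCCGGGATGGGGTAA
BCL2L1-202: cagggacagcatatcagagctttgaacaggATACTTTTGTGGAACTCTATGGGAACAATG
BCL2L1-201 continues inside its exon from 31721655 to 31722348, while BCL2L1-202 continues in the exon from 31664452 to 31666086. BCL2L1-202 was 4.14 to 7.26 TPM untreated and 0.63 to 2.91 TPM with E, or 4.73% and 3.21% of BCL2L1 on average. The short form was a minor transcript in every library, at most 8.36% of the gene.

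The main transcripts of the other members showed no change of share past the adjusted threshold. BMF-201, with 184 codons, held 60.6% ± 4.09 of BMF with E and 43.7% ± 25.2 untreated (SD, n = 10 lines), where the gene total was low and the transcript was listed at 0 in WT (adjusted p = 0.172 over all genes). BCL2L11-206, with the 198 codons of BIM-EL, rose from a median of 3.91 TPM to 13.9 TPM in 10 of 10 lines, and BCL2L11-201, with the 138 codons of BIM-L, from 1.18 TPM to 3.10 TPM. The share of BCL2L11-206 was 26.5% ± 5.66 untreated and 33.8% ± 5.05 with E (adjusted p = 0.125). MCL1-202, with the 350 codons of the long pro-survival MCL-1, held 90.9% ± 1.39 of MCL1 untreated and 93.0% ± 1.73 with E (adjusted p = 0.132). BBC3-203 held 57.6% and 65.1% of BBC3 (adjusted p = 0.225).

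Over the 29 libraries, the genes whose log2(TPM + 1) ran most like BMF were PIK3IP1 (Pearson r = 0.993), FBXO32 (0.993), SOX4 (0.992), PSAP (0.992) and HEG1 (0.991). For BCL2L11 they were RND3 (0.976), TCP11L2 (0.9749), NEDD9 (0.973), TRIM38 (0.972) and HEG1 (0.970), and BMF and BCL2L11 themselves had an r of 0.954. These values describe the 29 libraries, which share their lines and fall into untreated and treated groups. PIK3IP1, for example, went from a mean of 2.71 TPM untreated to 41.1 TPM with E and 33.1 TPM with EA.

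The rest of the apoptosis pathway was read from fixed lists, and each list held genes that rose and genes that fell with E. The counts of each list stand beside 79.0% of all genes past the threshold, 36.4% higher and 42.6% lower. TNFSF10, FOXO4 and TRIM17 had untreated means under 10 TPM and passed the filter through the treated libraries, and E2F1 (5.12 TPM with E) passed it through the untreated ones. BCL2L2-PABPN1 averaged 6.90 TPM with E, under the filter, and passed it through its other libraries. Of 16 other BCL2 family genes, 10 passed the filter, 4 rose and 4 fell. BOK, a BAX-like effector, rose from 88.7 ± 15.997 to 157 ± 10.2 TPM (SD, n = 10 lines), a log2 change of 0.83, and BCL2L13 rose by 0.52. BCL2L12 fell from 85.8 to 47.5 TPM on average, a log2 change of -0.84, and the readthrough gene BCL2L2-PABPN1, whose reads could be divided with its parent genes, had -0.76.

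Downstream of the mitochondria, 10 of 13 apoptosome and caspase genes passed the filter, 1 rose and 5 fell. CYCS, which encodes cytochrome c, fell from 138 ± 15.5 to 55.0 ± 4.71 TPM, a log2 change of -1.30, and DFFA, the inhibitor of the caspase-activated DNase, changed by -0.50. CASP9, the initiator caspase of the apoptosome, was the gene that rose, by 0.45. Of 10 genes for inhibitors of apoptosis and their antagonists, 8 passed, 3 rose and 2 fell. BIRC3 (cIAP2) rose by 1.24 and XAF1 by 0.68, and BIRC5 (survivin) fell from 120.3 ± 10.3 to 45.9 ± 5.73 TPM, a log2 change of -1.38, with HTRA2 at -0.23. Survivin is also a mitotic protein.

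Of 13 death receptor genes, 7 passed the filter, 5 rose and 2 fell. TNFSF10, the ligand TRAIL, rose from 3.79 ± 1.37 to 19.5 ± 3.41 TPM, a log2 change of 2.13, and the adaptor TRADD by 0.99. The receptor TNFRSF10B and the adaptor FADD changed by -0.44 and -0.39. Of 24 regulators of BIM, BMF and MCL-1, 20 passed, 8 rose and 10 fell. FOXO4, of the FOXO family that activates BIM transcription, rose from 5.64 ± 1.37 to 16.9 ± 2.93 TPM, and the ubiquitin ligase TRIM17 rose by 1.68. E2F1 fell from 35.4 ± 2.80 to 5.12 ± 1.39 TPM, a log2 change of -2.61, and VDAC1, a channel of the outer membrane, by a change of -0.94. The median log2 changes of these lists were 0.01 for the other BCL2 family genes, -0.18 for the apoptosome, 0.04 for the inhibitors of apoptosis, 0.21 for the death receptors and -0.06 for the regulators, beside -0.04 over all genes. Between EA and E, E2F1, which was under 10 TPM in both groups, was the only list gene to pass, from 5.42 ± 1.40 to 8.37 ± 1.79 TPM (SD, n = 8 lines), a log2 change of 0.56 (SE 0.13, limma adjusted p = 0.0475). This call was lost in 13 of 17 alternatives, among them no filter (0.207), no block (0.177) and leaving out PAR, WT, Y634F, Y643F, Y698F, Y726F or Y750F (0.0605 to 0.104). The other BCL2 family, apoptosome, inhibitor and death receptor lists held 0 genes past the threshold in limma. Of their 10, 10, 8 and 7 genes tested, 5, 0, 1 and 1 had an unadjusted p under 0.05, as had 5 of the 20 regulators. Over all genes, 1895 of 9085 had an unadjusted p under 0.05.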

How the data were processed

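Polyadenylated RNA of 29 libraries was sequenced on a NovaSeq, with the E and EA libraries taken 24 h after treatment. No harvest time is given for the untreated libraries in the sources used here. The authors deposited 1 table of transcript TPM, and kallisto and GRCh38 are named in the submitters' processing notes, while the annotation release and strand setting are not given in the sources used here. Of 188753 transcripts, 169797 matched GENCODE release 29, which carried 97.0% to 97.4% of each library's TPM, and these were summed into 35579 genes. TPM keep no depth, so no count test or counting interval was possible, and lines were the replicates, which measures only the spread between these lines.

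Changes were fitted on log2(TPM + 1) with limma 3.58.1 (R 4.3.3) with a trended prior, over 9085 genes that averaged 10 TPM or more, with Benjamini-Hochberg adjustment at 0.05. A log2(TPM + 1) change understates that of low genes. The cell line was a block, since untreated, E and EA libraries of 1 line come from the same cells. PAR was set against the 9 other lines in its change with E and in its mean over both treatments. Main transcript shares were tested with a two-sided exact sign-flip test over lines, adjusted over 8679 genes, an adjustment chosen after seeing the data. Scripts used scipy 1.17.1, pandas 2.3.3 and numpy 2.4.6 under Python 3.11.15, with matplotlib 3.10.9 for plots, and were tested on simulated data. Promoter windows came from RefSeq tables, which held windows for 8 of the 10 members.

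The members and lists were chosen with earlier results of these data known. Every member is named, with the 2 largest rises and 2 largest falls past the threshold of each list with E, every list gene past it between EA and E, and the 5 genes most correlated with BMF and with BCL2L11. Alternatives changed the pseudocount, filter, scaling, block, weights, lines and transcripts used.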

Additional observations from a re-analysis of the deposited data

Results flagged for a closer look

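A test for a single stray value (Dixon's, 95% level) was applied to the levels and changes of the members in groups of 8 to 10 libraries or lines, and picked out 13 of 79 groups, where chance gives about 3.95 (1 in 20). Of the 13, 8 were the PAR line. Levels and the changes computed from them share libraries, so the groups are not independent. The 2 counts therefore cannot show an excess over chance.

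MCL1 in PAR was 117 TPM untreated (others 140.2 to 154 TPM), 96.6 TPM with E (others 125 to 141 TPM) and 94.1 TPM with EA (others 123 to 136 TPM). BCL2L1 in PAR was 42.6 TPM with E (others 55.2 to 64.1 TPM) and 40.1 TPM with EA (others 52.8 to 61.8 TPM), and its log2 change from untreated was -1.40 with E (others -1.12 to -0.89) and -1.49 with EA (others -1.20 to -0.94). BIK in PAR was 11.1 TPM with E (others 17.5 to 23.3 TPM).

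In WT, the log2 change of BBC3 with E was 1.98 (others 1.003 to 1.52), and the change of the BMF-201 share from E to EA was 13.8 points (others -2.18 to 5.27). In Y643F, BCL2 was 1.25 TPM with EA (others 0.29 to 0.73 TPM) and its log2 change from E to EA was 0.51 (others -0.24 to 0.05). In Y726F, the log2 change of BCL2L1 from E to EA was 0.16 (others -0.20 to -0.04).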

How the results depend on the processing

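With E against untreated, BMF, BCL2L11, BBC3, BAX, BAK1, BCL2L1 and MCL1 kept their direction and their call under every alternative that gave a value, and a filter of at least 10 TPM in every library gave none for BMF and BBC3. Without the replicate block, PMAIP1 lost its call with E (adjusted p = 0.194) and with EA against untreated (0.0848), and BMF between EA and E (0.268). Between EA and E, 214 genes passed, against 67 with a mean of at least 1 TPM, 6 with no filter, 9 without the block, 120 with KD included and 10 to 188 with 1 line left out (10 without Y634F, 18 without Y643F, 55 without PAR and without Y698F, 76 without Y750F, 94 without Y821F and 131 without WT). Members past the threshold numbered 0 under the 1 TPM, every-library and no-filter settings and without the block, and 0 to 1 with 1 line left out. BAX between EA and E turned to 0.0051 without mitochondrial genes and ran from -0.0417 to 0.0323 with 1 line left out, and BIK with EA against untreated from -0.0488 to 0.0588. For the response of PAR, 535 genes passed, against 239 with quantile normalization, 264 for EA minus untreated and 429 to 680 with 1 line left out, and 0 to 1 members. Centring and quantile normalization turned the PAR differences of BCL2L11 (0.16 and 0.11), BAK1 (0.15 and 0.13) and MCL1 (0.06 and 0.0027), centring that of BBC3 (0.074), EA minus untreated that of BAK1 (0.29), and quantile normalization the PAR level of BAX (0.0035). That of BCL2L11 ran from -0.066 to 0.0090 with 1 line left out. Counting only coding transcripts turned the share changes of PMAIP1 with E (2.01 points) and of BCL2L11, BBC3 and MCL1 from E to EA (-0.16, -0.13 and -0.060). With 1 line left out, share changes ran from 13.0 to 21.5 for BMF and -2.54 to 0.79 for PMAIP1 with E, and from E to EA from -1.08 to 1.73 for BCL2L11, -0.62 to 1.28 for BBC3, -1.42 to 1.39 for BCL2L1 and -0.37 to 0.53 for MCL1. The ratio of sums (means 0.221, 0.962 and 0.899 untreated, with E and with EA) became 0.199, 0.882 and 0.830 with coding transcripts and 0.310, 1.35 and 1.26 from mean log2 values. The cause of these changes was not tested. TPM hold no depth, so the counting error of low members such as BCL2 is unknown.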
